A study of Mus musculus with 61 samples.

Results

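Csf2, Il2, Il3, Ifng, Il4 and Il13 encode the helper T cell cytokines GM-CSF, IL-2, IL-3, interferon-gamma, IL-4 and IL-13, and their transcripts were followed through 72 h of culture of mouse naive CD4 T cells with and without IL-27. The 6 genes were taken by gene symbol from the 12291 genes named on the arrays, and each was measured by 1 of the 22626 probe sets. Total RNA was hybridised to 61 Affymetrix arrays of 2 types. On the main type, HT_MG-430A, 26 IL27 arrays and 26 ctrl arrays covered 18 times, each time with 1 array per arm or, at 8 of them, 2. By its title the series asks which regulators IL-27 engages as T cells become type 1 regulatory (Tr1) cells, which secrete IL-10.

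All groups were naive CD4 T cells of the C57BL/6 strain, stimulated in culture with anti-CD3 and a second antibody that the labels write as anti-CD8, both at 1 µg/ml. The labels attach the same text, with IL-27 at 25 ng/ml, to every array including ctrl, so the arm of an array (IL27 or ctrl), its time and its type came from its title. Times carry no unit there and are read as hours, and the titles do not explain a suffix d on 1 of the 2 arrays of a duplicated time. The second array type, Mouse430A_2, held 3 IL27 and 3 ctrl arrays at 4, 16 and 48 h, a ctrl array at 0 h, and at 48 h 1 array named GFPP and 1 named GFPN, which are not explained in those sources. The age of the mice and whether arrays came from separate mice or cultures are not given either, and a p-value therefore reflects the spread among arrays, which can be technical.

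When its receptor is engaged, a T cell switches on cytokine genes through calcium, calcineurin and the transcription factors NFAT, AP-1 and NF-kappaB. IL-2 is the first growth factor a naive CD4 T cell makes, interferon-gamma marks the Th1 type, IL-4 and IL-13 the Th2 type, and GM-CSF and IL-3, which act on myeloid cells and their precursors, are made by several helper types. IL-27 raises T-bet (Tbx21) and is known from mouse T cells to lower the production of IL-2 and GM-CSF.

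The 250 bases before the annotated start of the genes called lower late in IL27 than in ctrl cultures, Csf2, Il3 and Il2, and of Ifng, which was not among them, are shown because NFAT is known to bind just upstream of T cell cytokine genes. Sequences are from RefSeq, build GRCm38.p6, 5′ to 3′ on the strand of the gene, and capitals mark GGAAA, the core of NFAT sites, read on either strand (TTTCC on the other). The windows are chr11:54249900-54250149 (minus strand) for Csf2, chr11:54267280-54267529 (minus) for Il3, chr3:37125955-37126204 (minus) for Il2 and chr10:118440796-118441045 (plus) for Ifng.
Csf2: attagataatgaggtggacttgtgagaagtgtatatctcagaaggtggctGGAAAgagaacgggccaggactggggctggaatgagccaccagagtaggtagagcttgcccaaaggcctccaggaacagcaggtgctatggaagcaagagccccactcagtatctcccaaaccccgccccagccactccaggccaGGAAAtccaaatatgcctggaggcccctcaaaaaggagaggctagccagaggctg
Il3: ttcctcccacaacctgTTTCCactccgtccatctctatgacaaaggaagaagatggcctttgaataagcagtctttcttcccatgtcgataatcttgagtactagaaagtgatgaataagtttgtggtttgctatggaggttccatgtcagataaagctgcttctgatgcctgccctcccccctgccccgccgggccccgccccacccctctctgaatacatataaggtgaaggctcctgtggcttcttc
Il2: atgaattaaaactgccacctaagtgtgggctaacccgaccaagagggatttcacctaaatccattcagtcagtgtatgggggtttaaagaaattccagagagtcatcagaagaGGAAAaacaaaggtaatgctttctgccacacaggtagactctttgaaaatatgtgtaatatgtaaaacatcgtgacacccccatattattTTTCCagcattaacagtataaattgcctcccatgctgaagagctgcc
Ifng: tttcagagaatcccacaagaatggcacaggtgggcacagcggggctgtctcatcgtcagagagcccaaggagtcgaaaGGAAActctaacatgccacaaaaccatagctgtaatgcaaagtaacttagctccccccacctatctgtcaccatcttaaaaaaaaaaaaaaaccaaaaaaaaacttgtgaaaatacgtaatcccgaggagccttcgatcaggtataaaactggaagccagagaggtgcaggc

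GGAAA stood in the windows of all 6 genes, counting 1 of the 2 annotated starts of Il4, but it also stood in 55.6% of the 32851 windows of the table. Counted from the start, its leftmost base lay at -200 and -55 for Csf2, -234 for Il3, -137 and -47 for Il2 and -172 for Ifng, with 5 matches in the window of Il4 and 4 in that of Il13. Of these windows, that of Ifng alone held TTCNNNGAA, the STAT pattern, at -249 (7.02% of all windows). AGATAA, the GATA pattern, stood once each for Csf2, Il3 and Il13 (9.99% of all windows), and the windows of Il2, Ifng and Il13 held TATAAA, the TATA box (12.4%). An interferon-response-like pattern stood once for Il4, overlapping a GGAAA match (2.98%), and neither TGANTCA (AP-1, 6.75%) nor GGTGTGA (T-box, 3.33%) stood in any of them. Both strands were read, and a match describes letters, not binding.

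The arrays were those of CD4 T cells by their markers: Cd3e, Cd3d, Cd4, Cd5 and Thy1 lay above the array's median intensity on 52 of 52 HT_MG-430A arrays. Of the CD8 chains, Cd8a did so on 0 arrays and Cd8b1 on 52. NK, basophil and mast cell markers did so on 0 to 2 arrays each, and of the B and myeloid markers Lyz2 was the most frequent, on 11 arrays. The Treg markers were split, with Foxp3 above the median on 1 array, Ikzf2 on 0 and Il2ra on 48. The ctrl array at 12 h stood apart, with a highest correlation to any other array of 0.871 over 7164 genes, against at least 0.977 for the other arrays. The middle window differences of Csf2, Il3, Ifng and Il13 are therefore also given without it. Other middle differences given below, such as those of Il2 and of related genes, include it. In such bulk samples fewer cells making a transcript and less RNA per cell cannot be told apart.

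Intensities are the deposited linear values. Array medians lay between 28.0 and 36.6, and a value near or below them is close to the dim end of the array. Differences between arms (IL27 minus ctrl) use the scale log2(intensity + 32), which makes changes of dim genes look smaller, for an early (0.5 to 4 h), a middle (8 to 20 h) and a late window (25 to 72 h). They were fitted with limma over 7164 genes, and called means an adjusted p under 0.05 (Benjamini-Hochberg over all of them). Early, 0 of the 6 cytokines were called, with 1 at an unadjusted p under 0.05, while 2.33% of all genes were called. For 8 to 20 h 1 was called, lower, against 5.86% of genes called lower and 10.7% in either direction. Late, Csf2, Il2 and Il3 were called, all lower, which is 3 of 6 against 9.76% of genes called lower and 18.5% either way. The cytokines, gene lists and windows were chosen with earlier results of these data known, so such shares, here and below, are a description.

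**Figure D1:**
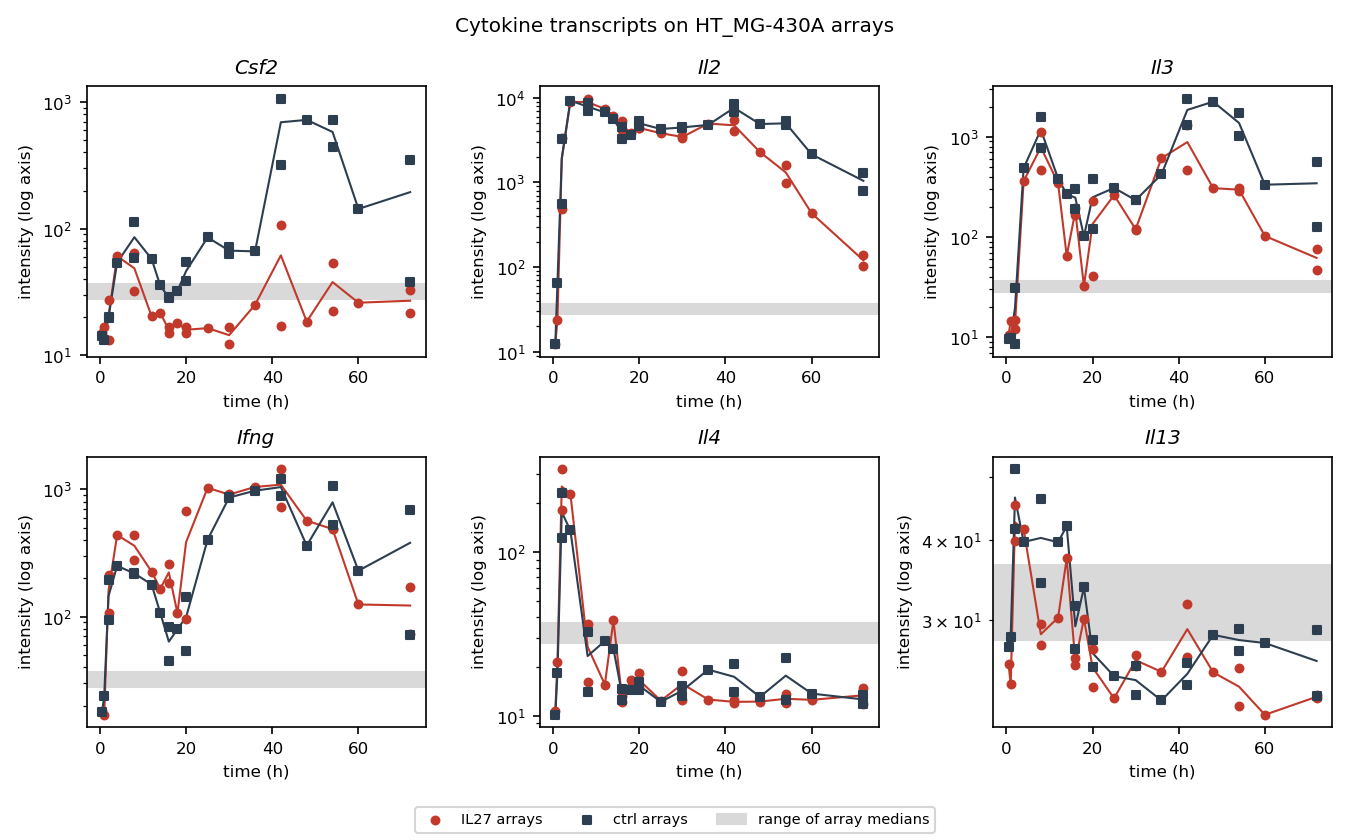
Intensity (log axis) of the 6 cytokine transcripts against time in hours on HT_MG-430A arrays, with IL27 arrays as red circles and ctrl arrays as dark squares, lines through the mean at each time, and the range of array medians in grey. Csf2 reached a mean of 61.6 in IL27 cultures at 42 h and 722 in ctrl cultures at 48 h, and at 72 h Il2 averaged 121 in IL27 and 1045 in ctrl cultures.

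Csf2, the gene for the myeloid growth factor GM-CSF, was the cytokine with the largest late difference of the 6. Over the 12 late arrays of each arm its intensity was lowest at 12.2, median 21.8 and highest 106 in IL27 cultures, against 37.8, 231 and 1065 in ctrl cultures. It lay above the array median on 2 of 12 late IL27 arrays and on 12 of 12 late ctrl arrays, and was lower on the IL27 array in 12 of 12 pairs matched by time and suffix, though the ranges of the arms overlap. The late difference was -2.06 ± 0.24 (SE, adjusted p = 3.16e-08). The mean intensities, 30.6 ± 26.1 in IL27 and 340 ± 337 in ctrl cultures (SD, n = 12 each), are given without a fold, since most IL27 values lay below the array medians. An exact two-sided sign-flip permutation test over the 8 late times gave p = 0.00781, the smallest it can give (0.0804 adjusted over the cytokines and windows tested this way).

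At 42, 42, 48, 54 and 54 h, Csf2 measured 17.1, 106, 18.5, 22.3 and 53.5 on IL27 arrays, against 318, 1065, 722, 437 and 722 on the matched ctrl arrays. Every ctrl value lay above every IL27 value. Split after the data were seen, the late window gave -3.20 ± 0.29 at 42 to 54 h (adjusted p = 2.29e-10). There Csf2, Il2 and Il3 were called lower, against 4.47% of genes.

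From 25 to 36 h, Csf2 measured 16.4, 12.2, 16.7 and 25.0 on IL27 arrays, against 85.3, 71.3, 62.8 and 66.1 on ctrl arrays. The arms did not overlap there, but the difference of -1.06 ± 0.32 was not called (adjusted p = 0.0642). The 42 to 54 h difference exceeded it by -2.13 ± 0.43 (adjusted p = 0.00666), in a contrast that called 0.67% of genes. The split was made after the data were seen, so its p-values, also those of Il3 and Il2 below, are a description. At 60 to 72 h the values were 26.03, 21.4 and 32.6 on IL27 arrays, against 143, 37.8 and 350 on ctrl arrays, a difference of -1.52 ± 0.37 (adjusted p = 0.00391). The 2 ctrl arrays at 72 h thus lay further apart than the IL27 arrays did.

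Tested time by time, Csf2 was called lower at 42 h (-2.91 ± 0.55, adjusted p = 0.00333), at 48 h (-3.90 ± 0.78, adjusted p = 0.00609) and at 54 h (-3.13 ± 0.55, adjusted p = 0.00085). At those times 1.88%, 2.33% and 4.68% of genes were called in either direction. At 48 h each arm had 1 array, and the spread there is that of the duplicated times.

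Before 25 h Csf2 lay above the array median on 1 of 5 early arrays in each arm, and on 2 of 9 middle IL27 arrays against 7 of 9 middle ctrl arrays. Early, it ran from 13.3 to 60.7 in IL27 cultures, against 13.1 to 54.0 in ctrl cultures, and both arms were highest at 4 h. The early difference was 0.05 ± 0.38 (adjusted p = 0.997). In the middle window its lowest, median and highest values were 14.9, 18.0 and 64.8 on IL27 arrays, against 28.1, 38.3 and 112 on ctrl arrays. It was lower on the IL27 array in 9 of 9 pairs, but the window difference of -0.51 ± 0.28 was not called (adjusted p = 0.245, and 0.402 without the 12 h ctrl array).

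The difference of Csf2 between arms itself changed with time, while its IL27 values mostly stayed near the dim end. From 25 to 36 h to 42 to 54 h its median went from 16.5 to 22.3 in IL27 cultures, against 68.7 to 722 in ctrl cultures. Early, 1 of 5 arrays per arm lay above the array median, which left little room for a lowering. In the middle window 2 of 9 IL27 and 7 of 9 ctrl arrays did, with a ctrl median of 38.3, which also left little room. The difference was lower late than early by -2.11 ± 0.45 (adjusted p = 0.00203), the only one of the 6 cytokines called in that contrast, which called 7.09% of genes. It was also lower late than in the middle window by -1.55 ± 0.37 (adjusted p = 0.00638), in a contrast that called 8.1% of genes. Without the suffix d arrays the second contrast was -1.37 and lost its call (adjusted p = 0.0657).

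**Figure D2:**
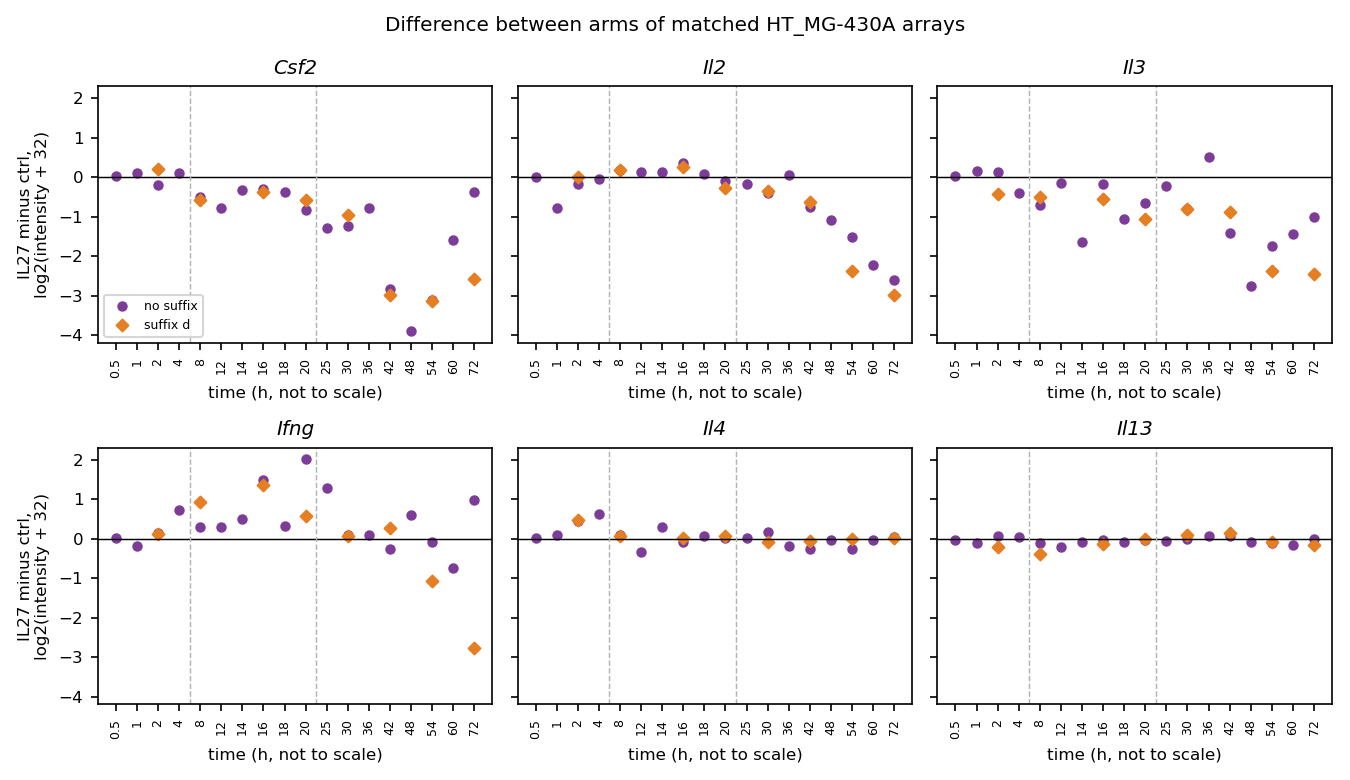
IL27 minus ctrl difference in log2(intensity + 32) units for each matched pair of HT_MG-430A arrays, by time in hours (axis not to scale), with circles for arrays without a suffix and diamonds for suffix d, and dashed lines between the windows. Csf2 lies below 0 in all 9 middle and all 12 late pairs, while Ifng lies above 0 in all 9 middle pairs and on both sides of 0 late.

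Il3, the gene for the multilineage growth factor IL-3, had a first maximum near 8 h and a second near 42 to 54 h. At the second, the values at 42, 42, 48, 54 and 54 h were 471, 1300, 307, 286 and 307 on IL27 arrays, against 1297, 2410, 2240, 1028 and 1721 on ctrl arrays. Each IL27 array was lower than its matched ctrl array, and the arms overlap only through the higher IL27 array at 42 h. Over the late window the lowest, median and highest values were 47.2, 274 and 1300 in IL27 cultures, against 127, 491 and 2410 in ctrl cultures.

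The late difference of Il3 was -1.28 ± 0.25 (adjusted p = 0.000181), and it was lower on the IL27 array in 11 of 12 pairs. The exception was 36 h, where the IL27 array had 612 and the ctrl array 422. After the split, Il3 differed by -0.33 ± 0.39 at 25 to 36 h (adjusted p = 1), by -1.82 ± 0.35 at 42 to 54 h (adjusted p = 0.000335) and by -1.63 ± 0.45 at 60 to 72 h (adjusted p = 0.0102). At 25 to 36 h 0 of the 6 cytokines were called by limma (1, Csf2, at an unadjusted p under 0.05), with 3.52% of genes called. At 60 to 72 h Csf2, Il2 and Il3 were called lower, against 10.1% of genes. No single time was called for Il3; at 54 h, where its adjusted p was smallest, the difference was -2.05 ± 0.61 (adjusted p = 0.0583).

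Il3 was lower on the IL27 array in 9 of 9 middle pairs. Its lowest, median and highest values were 32.4, 194 and 1109 in IL27 cultures, against 102, 302 and 1584 in ctrl cultures. The window difference of -0.72 ± 0.29 was not called (adjusted p = 0.101, and 0.110 without the 12 h ctrl array), and late minus middle was -0.56 ± 0.38 (adjusted p = 0.368). At 0.5 to 2 h every array of both arms had at most 30.8, and at 4 h the IL27 array had 361 and the ctrl array 486.

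Il2, the gene for the T cell growth factor IL-2, appeared within the first 4 h. At 0.5, 1, 2, 2 and 4 h it measured 12.2, 23.9, 487, 3303 and 8930 on IL27 arrays, against 12.3, 64.4, 556, 3286 and 9269 on ctrl arrays. The arms ran side by side, and the arrays of each arm at 2 h lay further apart than the arms did. The early difference was -0.20 ± 0.39 (adjusted p = 0.963). In the middle window the lowest, median and highest were 3818, 5357 and 9788 in IL27 cultures, against 3232, 5333 and 8619 in ctrl cultures, with a difference of 0.11 ± 0.29 (adjusted p = 0.856).

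The arms parted late. At 48, 54, 54, 60, 72 and 72 h it measured 2282, 1628, 993, 432, 104 and 137 on IL27 arrays. On the matched ctrl arrays it measured 4891, 4716, 5259, 2143, 794 and 1296. Every IL27 value lay below that of its own pair, and the ratio of ctrl to IL27 was 2.14 at 48 h and 7.65 and 9.44 on the pairs at 72 h. Over the whole late window the lowest, median and highest were 104, 2833 and 5449 in IL27 cultures, against 794, 4593 and 8450 in ctrl cultures.

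The late difference of Il2 was -1.25 ± 0.25 (adjusted p = 0.000351), lower in 11 of 12 pairs. By the later split it was -0.21 ± 0.37 at 25 to 36 h (adjusted p = 1), -1.27 ± 0.33 at 42 to 54 h (adjusted p = 0.00873) and -2.60 ± 0.42 at 60 to 72 h (adjusted p = 2.48e-05). The 60 to 72 h difference minus the 42 to 54 h one was -1.33 ± 0.53 and not called (adjusted p = 0.355, with 0.754% of genes called). As a single time, 72 h was called (-2.79 ± 0.60, adjusted p = 0.00359), with 12.5% of genes called there. Late minus middle the difference of Il2 was -1.36 ± 0.39 (adjusted p = 0.0235), and this call was lost without 16 h (adjusted p = 0.0721), 54 h (0.0842), 72 h (0.0962) or the arrays with no suffix at duplicated times (0.0794).

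Ifng, the gene for interferon-gamma, which activates macrophages and defines the Th1 type, had higher values on the IL27 array of each pair from 2 to 36 h. Over the middle arrays its lowest, median and highest values were 95.1, 225 and 673 in IL27 cultures, against 44.7, 107 and 221 in ctrl cultures. The IL27 array was higher in 9 of 9 pairs, by 0.29 to 2.01 on the log2 scale, though the ranges of the arms overlap. The window difference of 0.86 ± 0.29 missed the threshold (adjusted p = 0.0517, 0.0571 without the 12 h ctrl array and 0.0448 in the fit with the late split). An exact two-sided sign-flip permutation test over the 6 middle times gave p = 0.0312, the smallest it can give (0.0804 adjusted).

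At 25 h the IL27 array had 1026 and the ctrl array 403. From 30 to 36 h the arms were close, at 919, 899 and 1043 on IL27 arrays, against 859, 865 and 974 on ctrl arrays. Late, 7 of 12 pairs were higher and 5 lower in IL27, and the difference was -0.13 ± 0.25 (adjusted p = 0.796). The largest late pair difference, -2.78, came from the suffix d arrays at 72 h, with 73.0 on the IL27 and 688 on the ctrl array. The other arrays at 72 h had 171 (IL27) and 71.0 (ctrl), the opposite direction. Late minus middle, the difference of Ifng was -0.99 ± 0.39 (adjusted p = 0.109).

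Il4, the gene for the Th2 cytokine IL-4, was measured above the array medians mainly at 2 and 4 h. At 2, 2 and 4 h it had 322, 180 and 227 on IL27 arrays, against 229, 121 and 136 on ctrl arrays. The IL27 array was 1.41, 1.49 and 1.67 times its ctrl array there, though the arms overlap. It was higher in 5 of 5 early pairs, but at 0.5 and 1 h both arms lay below the array medians. The values there were 10.7 and 21.5 on IL27 arrays, against 10.1 and 18.2 on ctrl arrays. The early difference of 0.33 ± 0.12 was not called (adjusted p = 0.2, unadjusted 0.00944). From 16 h on no array of either arm exceeded 22.7, and late 0 of 12 arrays per arm lay above the array median (difference -0.06 ± 0.08, adjusted p = 0.67).

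Il13, the gene for the Th2 cytokine IL-13, stayed near the dim end throughout, between 21.4 and 45.4 on IL27 arrays and between 22.5 and 51.5 on ctrl arrays. Over 8 to 20 h its lowest, median and highest values were 23.6, 27.5 and 37.4 on IL27 arrays, against 25.4, 33.8 and 46.3 on ctrl arrays. It was lower on the IL27 array in 9 of 9 pairs and was the cytokine called in that window (-0.12 ± 0.04, adjusted p = 0.0451). Without the 12 h ctrl array the difference was -0.11 and the call was lost (adjusted p = 0.11). The call was also lost without 8 h (adjusted p = 0.177) or 16 h (0.0845), among other times.

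**Figure D3:**
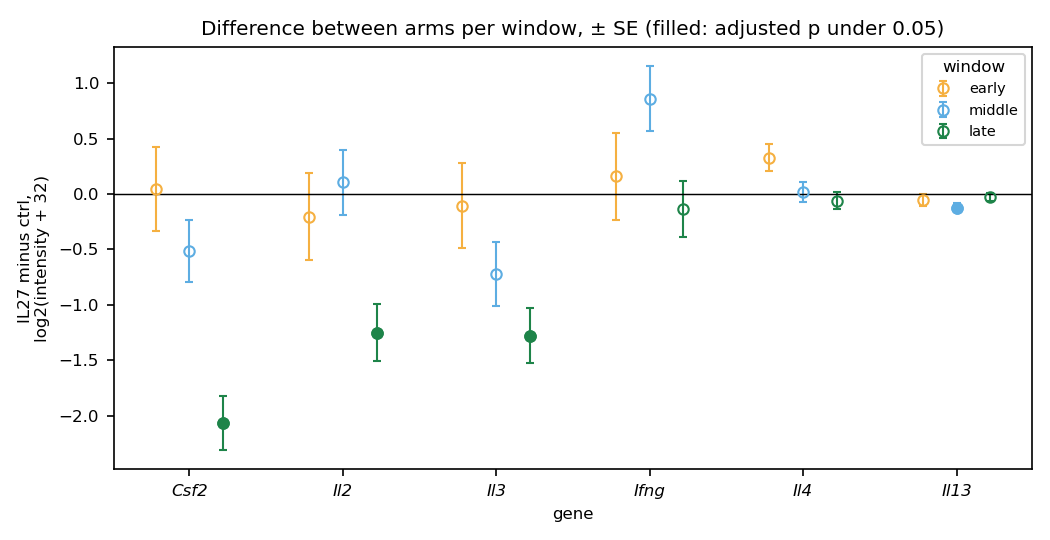
Fitted IL27 minus ctrl difference in log2(intensity + 32) units, with its SE as bars, for each cytokine in the early, middle and late windows, with filled symbols for an adjusted p under 0.05. Late differences of -2.06 (Csf2), -1.25 (Il2) and -1.28 (Il3) stand apart from those of Ifng (-0.13), Il4 (-0.06) and Il13 (-0.03).

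CD8-chain and CD4-lineage transcripts moved with these windows and are given beside them. Summed over Cd8a and Cd8b1, intensity ran from 65.8 to 151 on late IL27 arrays, against 110 to 326 on late ctrl arrays. Cd8b1 was called lower late (-0.62, adjusted p = 2.51e-06) and in the middle window (-0.58, adjusted p = 0.00015), while Cd8a was above the median on 0 arrays. The summed CD4 T cell markers ran from 7414 to 13091 on late IL27 arrays, against 7288 to 11246 on late ctrl arrays, with Cd5 called higher (0.47) and Cd4 called lower (-0.30). Over 8 to 20 h Thy1 (-0.93), Cd4 (-0.52) and Cd3g (-0.36) were called lower, and early Cd4 (-0.41) was. The part of these in the cytokine differences was not tested. Basophil and mast cell markers, summed, ran from 45.4 to 65.9 on middle IL27 arrays, against 46.7 to 73.2 on middle ctrl arrays, and none of the 5 passed the filter on dim genes.

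Within each arm, windows were compared without the other arm, with most of the transcriptome moving. In the IL27 arm, middle minus early, Il2 (3.45 ± 1.02) and Il3 (1.66 ± 0.67) were higher and Il4 (-1.39 ± 0.32) lower, 3 of 6 against 68.6% of genes. In the ctrl arm the same comparison called Il2 (3.14 ± 0.80) and Il3 (2.27 ± 0.68) higher, 2 of the 5 cytokines that passed the filter there, against 65% of genes. Il4 did not pass in the ctrl arm. These shares lie below that of all genes.

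Late minus middle, Il2 was lower in the IL27 arm (-1.86 ± 0.81, adjusted p = 0.0488), 1 of 6 against 59.9% of genes. That call was lost with no filter on dim genes (adjusted p = 0.073). In the ctrl arm Csf2 (1.66 ± 0.41) and Ifng (2.03 ± 0.39) were higher and Il13 (-0.19 ± 0.06) lower, 3 of 5 against 48.1% of genes. Csf2 in the IL27 arm differed by 0.11 ± 0.17 (adjusted p = 0.602) and Ifng by 1.04 ± 0.47 (adjusted p = 0.0579).

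Late minus early, the IL27 arm had Il3 (1.94 ± 0.64) and Ifng (2.04 ± 0.57) higher and Il4 (-1.58 ± 0.30) and Il13 (-0.23 ± 0.07) lower, 4 of 6 against 70.2% of genes. The ctrl arm had Csf2 (2.18 ± 0.50), Il2 (2.63 ± 0.76), Il3 (3.11 ± 0.65) and Ifng (2.33 ± 0.47) higher and Il13 (-0.26 ± 0.08) lower, 5 of 5 against 69.3% of genes. Csf2 differed by 0.07 ± 0.21 in the IL27 arm (adjusted p = 0.773).

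At the 8 duplicated times the 2 arrays of an arm differed by a median of 0.34 (Csf2), 0.32 (Il2), 0.68 (Il3), 0.71 (Ifng), 0.10 (Il4) and 0.07 (Il13) on the log2(intensity + 32) scale. The largest such differences were 2.45 for Csf2, 2.69 for Il2, 1.90 for Il3 and 2.81 for Ifng. The fitted difference at 42 to 54 h was larger than that for Csf2 (-3.20), and smaller for Il2 (-1.27) and Il3 (-1.82). However, the largest duplicate difference of Il2 came from 2 h and that of Il3 from 72 h. At 42 and 54 h themselves, suffix d minus the other array ran from -0.69 to 0.44 for Il2. For Il3 it ran from 0.09 to 1.40 there, so both fitted differences were larger than the duplicate differences at those times.

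Genes among the 5 most like each cytokine across the 51 arrays without the 12 h ctrl array are given as a description. All points share the same course of times. For Csf2 the 5 were Ebi3 (r = 0.876), Cd70 (0.874), Ccr6 (0.869), Ccn1 (0.860) and Ccn4 (0.843). Ebi3 encodes a subunit of IL-27 and IL-35, Cd70 a costimulatory ligand and Ccr6 the receptor of CCL20. The same arrays chose these genes, so their late differences are a description. They were -1.65 ± 0.11 for Ccr6, -1.64 ± 0.22 for Cd70, -1.58 ± 0.11 for Ebi3, -1.13 ± 0.13 for Ccn4 and -0.44 ± 0.06 for Ccn1. Among the cytokines, Csf2 was most like Il3 (0.737) and Il4 most like Il13 (0.730).

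The genes most like Il2 were Eef1e1 (0.937), Chchd4 (0.936), Shmt1 (0.936), Utp6 (0.933) and Rwdd4a (0.923), among which Shmt1 is an enzyme of one-carbon metabolism and Utp6 acts in ribosome assembly. For Il3 they included the tRNA synthetase Nars (0.783), Ifitm2 (0.783) and the chemokine Ccl3 (0.745), and for Ifng Clic4 (0.796), Myef2 (0.795) and Ccl3 (0.783). For Il4 they included Zeb1 (0.902), a transcriptional repressor, and Nr4a3 (0.896), an immediate early nuclear receptor, and for Il13 Sh2b3 (0.844) and the calcium channel Orai1 (0.838).

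Of the 12 listed receptors through which these cytokines act, 7 passed the filter on dim genes, and late 2 were higher and 1 lower, against 8.78% and 9.76% of all genes. Il4ra (0.37 ± 0.12) and Il3ra (0.12 ± 0.04) were the higher ones, and Ifngr2 (-0.80 ± 0.12), the signalling chain of the interferon-gamma receptor, was lower. Il3ra was near the dim end, at late means of 31.0 in IL27 and 25.1 in ctrl cultures. Csf2ra (-0.06 ± 0.06), Il2ra (0.06 ± 0.17), Il2rb (-0.17 ± 0.12) and Ifngr1 (0.45 ± 0.18) were not called. In the middle window Ifngr2 was also lower (-0.96 ± 0.14), with a mean of 44.2 in IL27 and 117 in ctrl cultures, while Il2rb (0.90 ± 0.14) and Il4ra (0.47 ± 0.14) were higher.

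Other helper cytokines went both ways. In the middle window 4 of the 6 tested were higher, against 4.83% of genes: Il21 (1.44 ± 0.22), Lta (1.32 ± 0.23), Lif (1.19 ± 0.20) and Tnf (0.83 ± 0.14), with a list median of 1.01 against -0.02 for all genes. Late, Il21 and Il10 (0.64 ± 0.07) were higher, Lta (-0.59 ± 0.20) lower, and Tnf (-0.03 ± 0.12) and Lif (-0.34 ± 0.17) were not called. Il10 was near the dim end, at late means of 35.7 in IL27 and 10.1 in ctrl cultures. Il21, a growth factor for B and T cells, is the next protein-coding gene beside Il2 on chromosome 3, with late means of 504 in IL27 and 22.9 in ctrl cultures (3.14 ± 0.19), in the window where Il2 was lower.

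Csf2 and Il3 are neighbours on chromosome 11, and Acsl6, a fatty acid ligase gene on the far side of Il3, was lower late (-0.86 ± 0.10, adjusted p = 5.29e-08) and in the middle window (-0.57 ± 0.12). P4ha2, a collagen hydroxylase gene on the far side of Csf2, was higher late (0.54 ± 0.18, adjusted p = 0.036). Rad50, a DNA repair gene beside Il13, was lower late (-0.33 ± 0.07), and Kif3a, a motor protein gene beside Il4, was not called (-0.01 ± 0.06). Of the 8 genes tested from this stretch 2 were higher and 3 lower late (8.78% and 9.76% of all genes), with a median of -0.19 against -0.01 for all genes. Irf1, an interferon-induced transcription factor encoded in that stretch, was higher early (1.04 ± 0.22) and in the middle window (1.34 ± 0.17), and late it was -0.36 ± 0.14 (adjusted p = 0.073).

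Of the machinery that switches cytokine genes on, the calcineurin, NFAT and AP-1 list had 4 of 15 higher and 0 lower late. These were the calcineurin gene Ppp3cc (0.49 ± 0.08), Fosl2 (0.52 ± 0.13), Junb (0.51 ± 0.15) and Batf (0.50 ± 0.11). The median of the list was 0.15, and 8.78% of all genes were called higher. Early, Batf was higher (1.63 ± 0.17) and Fosb lower (-0.29 ± 0.07). In the middle window Batf (1.12 ± 0.13), Jun (1.09 ± 0.17) and Junb (0.89 ± 0.17) were higher and Ppp3ca, another calcineurin gene, lower (-0.36 ± 0.10). The NF-kappaB list had 4 of 6 lower late, against 9.76% of all genes, with a median of -0.48 against -0.01: Nfkb2 (-0.87 ± 0.23), Rel (-0.80 ± 0.10), which encodes c-Rel, and the inhibitors Nfkbie (-0.59 ± 0.10) and Nfkbia (-0.37 ± 0.05). Rel, Nfkbie and Nfkbia were also lower in the middle window (-0.52 ± 0.12, -0.53 ± 0.11 and -0.25 ± 0.06). Rela (0.13 ± 0.08) and Relb (-0.01 ± 0.11) were not called late.

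Of the 6 Th1 factors tested 2 were higher and 2 lower late, and of the 5 Th2 factors 2 were higher and 3 lower, against 8.78% of all genes higher and 9.76% lower. Tbx21, which activates Ifng, was higher early (1.87 ± 0.32) and in the middle window (2.95 ± 0.24), with middle means of 1840 in IL27 and 241 in ctrl cultures. Late it was 0.43 ± 0.21 and not called (adjusted p = 0.16). Eomes, the related T-box factor, was lower late (-2.25 ± 0.16), at a mean of 62.0 in IL27 and 426 in ctrl cultures, and Il12rb2 (1.29 ± 0.09) and Hlx (0.74 ± 0.08) were higher. Gata3, the factor that activates Il4 and Il13, was lower in the middle window (-0.89 ± 0.10) and late (-1.35 ± 0.09), with Ccr8 (-0.67 ± 0.13) also lower late and Nfil3 (1.68 ± 0.09) higher.

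Targets of STAT5, the factor that IL-2 activates, went both ways late: 3 of 9 were higher and 4 lower, against 8.78% and 9.76% of all genes, with a median of -0.22. Gzmb (1.20 ± 0.17), Bcl2 (0.50 ± 0.11) and Pim1 (0.26 ± 0.07) were higher, and Socs2 (-0.85 ± 0.26), Lta, Pim2 (-0.59 ± 0.17) and Ccnd2 (-0.27 ± 0.08) lower. Cish, a feedback inhibitor, was higher early (0.93 ± 0.18) and not called late (-0.22 ± 0.12).

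**Figure D4:**
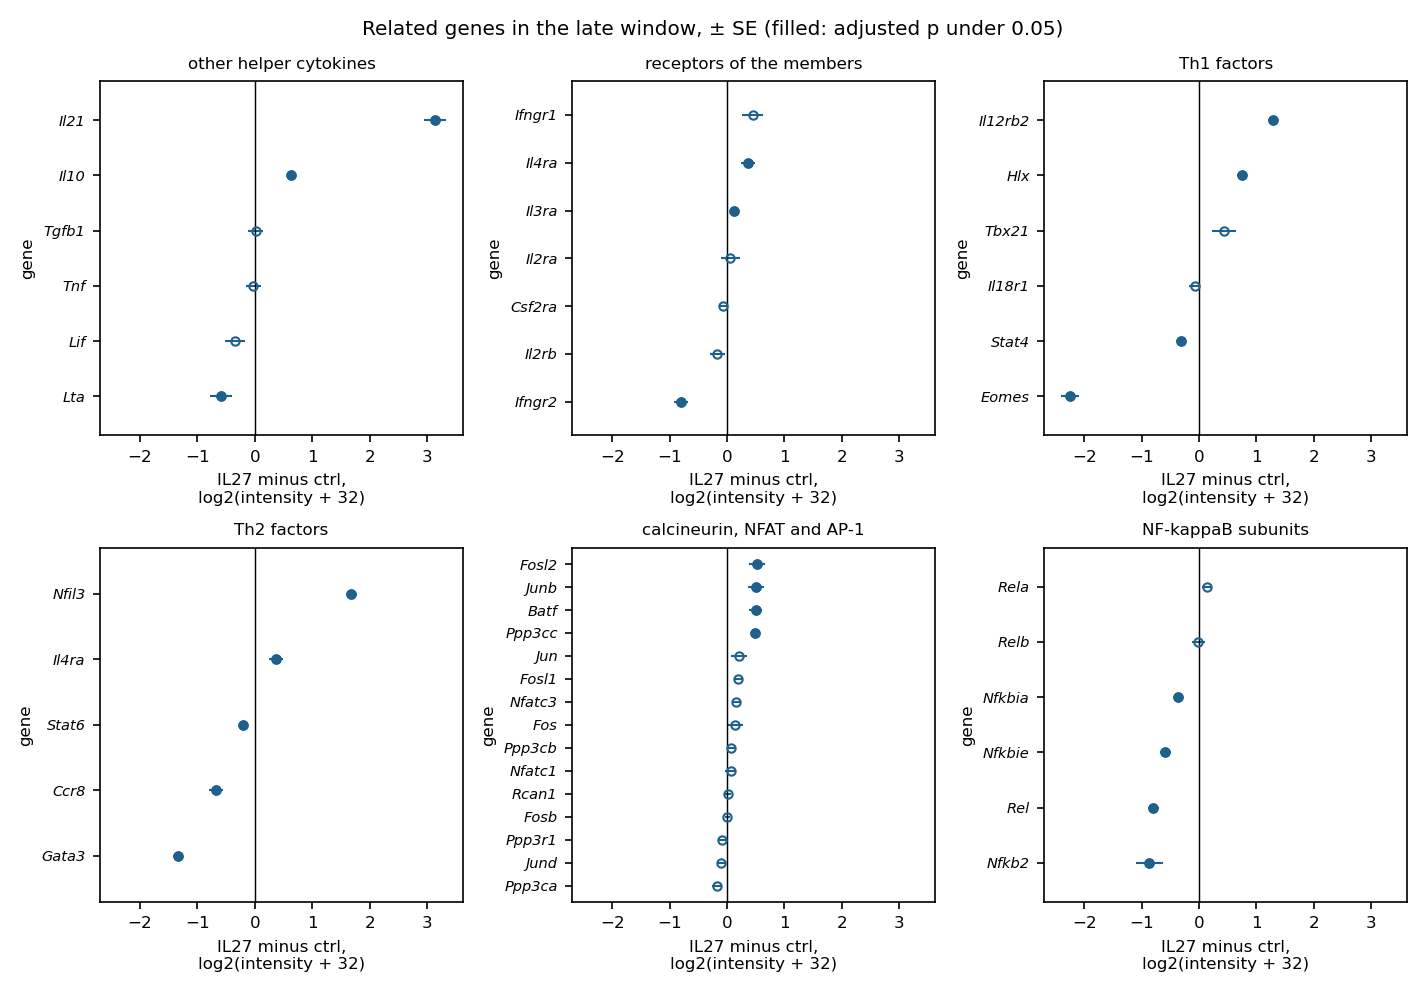
Fitted late IL27 minus ctrl difference in log2(intensity + 32) units, with its SE as bars, for genes of 6 lists related to the cytokines, with filled symbols for an adjusted p under 0.05. Il21 (3.14) and Eomes (-2.25) lie furthest from 0, and the NF-kappaB genes called all lie below 0.

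On Mouse430A_2 arrays, which were normalized apart and have array medians between 70.7 and 78.9, Csf2 had 47.4, 23.8 and 39.1 on IL27 arrays at 4, 16 and 48 h, against 122, 24.3 and 427 on ctrl arrays. Il3 had 150, 82.4 and 182 on IL27 arrays, against 296, 235 and 860 on ctrl arrays, and Il2 had 17965, 6907 and 2841, against 18519, 6878 and 10282. At 48 h all 3 were lower on the IL27 array, Il3 by 4.73-fold, Il2 by 3.62-fold and Csf2 with its IL27 value below the array medians, while Ifng had 462 on the IL27 and 442 on the ctrl array. At 4 h Csf2 was also lower on the IL27 array, where the HT_MG-430A arrays had 60.7 (IL27) and 54.0 (ctrl).

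The fit over these 6 arrays has 2 residual degrees of freedom and called 0 of 6508 genes by limma, with 476 at an unadjusted p under 0.05. Of the 3 cytokines that passed the filter on dim genes, Il3 was at -1.38 ± 0.22 (adjusted p = 0.145), Il2 at -0.63 ± 0.32 (adjusted p = 0.743) and Ifng at 0.20 ± 0.13 (adjusted p = 0.765), and Il3 was the 1 of them at an unadjusted p under 0.05. Csf2, Il4 and Il13 did not pass. Il4 had 71.6, 18.0 and 19.8 on IL27 arrays, against 59.5, 18.2 and 33.9 on ctrl arrays, and Il13 had 58.2, 51.8 and 51.7, against 94.0, 45.8 and 48.3. The ctrl array at 0 h had 25.4 for Csf2, 31.9 for Il2, 14.3 for Il3 and 19.2 for Ifng, all below its median.

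**Figure D5:**
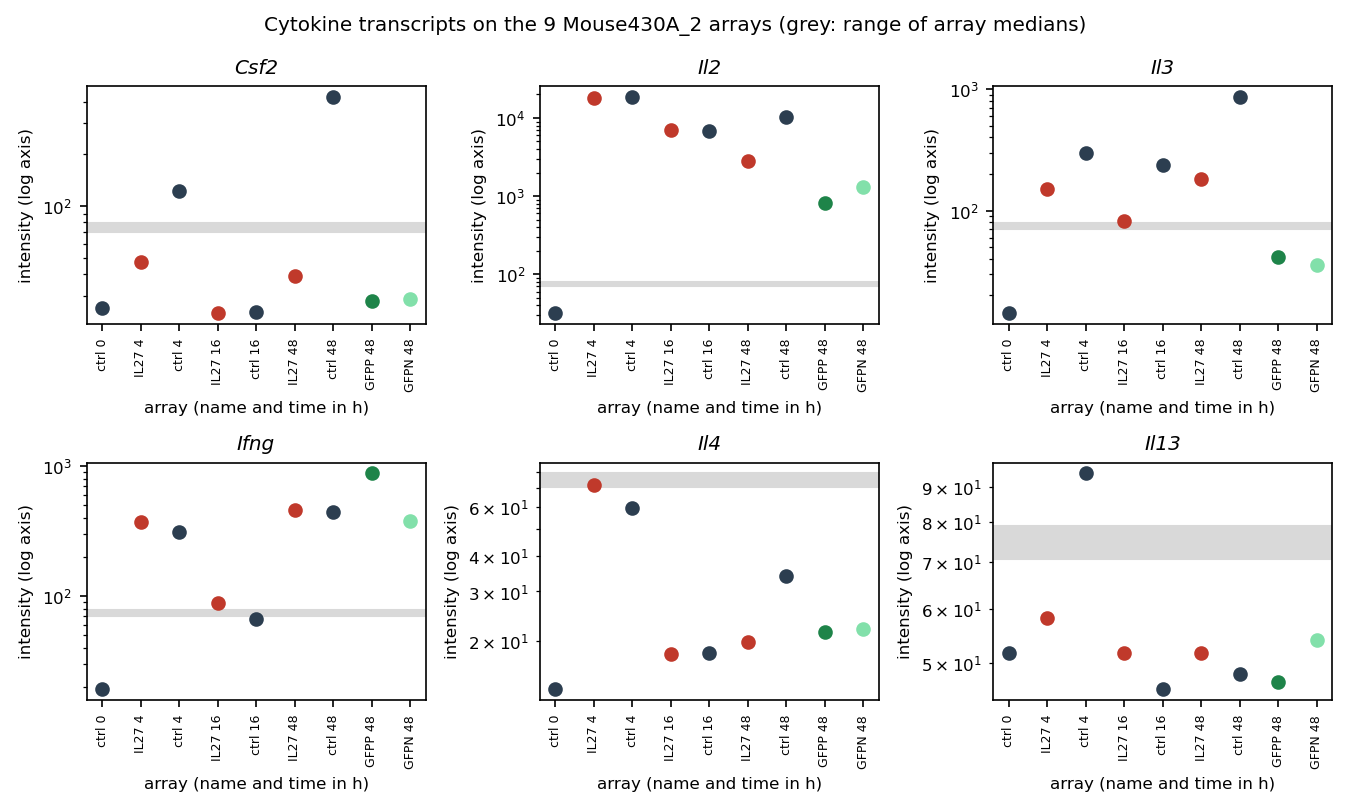
Intensity (log axis) of the 6 cytokine transcripts on the 9 Mouse430A_2 arrays, 1 point per array, named by group and time in hours, with the range of array medians in grey. At 48 h Csf2, Il2 and Il3 lie lower on the IL27 than on the ctrl array, and Ifng is higher on the GFPP array (877) than on the GFPN array (376).

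The GFPP and GFPN arrays, 1 each at 48 h, allow no test. Ifng had 877 on the GFPP and 376 on the GFPN array, 2.33-fold higher, and was 1 of 8 genes of 6610 at least 2-fold higher on GFPP on the log2(intensity + 32) scale (0.121%). Il2 had 804 on the GFPP and 1302 on the GFPN array, a difference of -0.67 on that scale. Csf2 (28.1 and 28.6), Il3 (41.1 and 35.8), Il4 (21.5 and 21.98) and Il13 (47.0 and 54.1) lay below the array medians on GFPP and GFPN arrays.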

How the data were processed

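Values were the deposited intensity of each probe set on a linear scale, made by the authors with MAS5 per the submitters' processing notes; the sources used here do not give its version or its scaling and background settings. Array medians were alike within an array type, so no further normalization was applied, and the types were tested apart. Probe sets with 1 gene symbol in the platform annotation (20173 of 22626) were used, and a gene took its brightest probe set. The deposited intensities were converted here to log2(intensity + 32). Genes entered a fit when at least 5 of its arrays (3 on Mouse430A_2) had them above that array's median.

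Tests used limma 3.58.1 in R 4.3.3 (lmFit, contrasts and eBayes with an intensity trend) with Benjamini-Hochberg adjustment over all genes kept. The window model held a term for each time and an IL27 coefficient for each window (5, 9 and 12 arrays per arm). Single times took their spread from the 8 times with 2 arrays per arm. Arms were also compared across windows on their own, and the GFPP and GFPN arrays by difference only. The number of arrays limits the precision. Fits were checked on simulated data.

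The cytokines, gene lists, marker lists, motifs and windows were chosen with earlier results of these data known. The 6 cytokines were examined in each comparison, but some differences that were not called are not printed. Tested list genes could be named, called ones first by smallest adjusted p (up to 6 per list and window). So could the 5 genes with the highest Pearson correlation to each cytokine. Alternatives varied the pseudocount, the filter, the normalization, the probe set rule, single times and the suffix d. Some listed genes, among them Il17f, Il22, Osm, Il2rg, Nfkb1, Lck, Trac and Klrb1c, were not analysed here. Promoter windows and chromosomal neighbours came from RefSeq tables of build GRCm38.p6.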

Additional observations from a re-analysis of the deposited data

Results flagged for a closer look

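In the main fit the difference between IL27 and ctrl arrays depended on time for Csf2 and Il2, by tests of the change itself. For Csf2 the late difference lay below the early one by -2.11 (limma, adjusted p = 0.00203) and below the middle one by -1.55 (adjusted p = 0.00638), in log2(intensity + 32) units. The second call was lost without the suffix d arrays (adjusted p = 0.0657). Early, Csf2 lay above the array median on 1 of 5 arrays of each arm, which left little room for a lowering. In the middle window it did so on 7 of 9 ctrl arrays, but with a ctrl median of 38.3, which also left little room. Within the late window, after a split chosen once the data were seen, the 42 to 54 h difference of Csf2 lay below that at 25 to 36 h by -2.13 (adjusted p = 0.00666). Because of that choice this p-value is a description. For Il2 the late difference lay below the middle one by -1.36 (adjusted p = 0.0235). The Il2 call was lost in 4 of 26 limma alternatives (adjusted p up to 0.0962). Each of these left out 1 time or the arrays with no suffix at duplicated times.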

How the results depend on the processing

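The late calls of Csf2 (-2.93 to -1.40), Il2 (-1.43 to -0.94) and Il3 (-1.44 to -1.08) held under every limma alternative in which these genes were tested over the whole window, with adjusted p of at most 7.41e-05, 0.0105 and 0.00391. Exact sign-flip permutation tests over the 8 late times gave p = 0.00781, 0.0156 and 0.0234, and 0.0804 for each after adjustment, which does not pass. In the split, 0 of the cytokines were called at 25 to 36 h. Csf2, Il4 and Il13 drop out of a filter on genes above the median mean, which left 0 cytokines called late minus early, 1 late minus middle and 2 late minus early in the IL27 arm. In the middle window (1 called) leaving out a time or a suffix set gave 0 to 1, averaging single times 0, leaving out the 12 h ctrl array 0, a pseudocount of 1 gave 2 and unadjusted sign-flip permutation tests 4. The middle difference of Ifng passed the threshold with a pseudocount of 1 (adjusted p = 0.0402), without suffix d (0.0410), with the filter above the median (0.0476) and in the fit with the late split (0.0448). Leaving out a time or suffix set gave 1 to 2 late minus middle and 0 to 2 on Mouse430A_2, where such fits keep 1 residual degree of freedom. Late minus middle in the IL27 arm (1 called) gave 0 with no filter, quantile normalization, a pseudocount of 1 or the mean of all probe sets, and 2 with a pseudocount of 100.

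The suffix d was not taken as a pairing, since its deviations correlated between arms by -0.01 at 30 h, though by 0.23 to 0.76 at the other 7 duplicated times. The counts of pairs matched by time and suffix are therefore a description. With suffix d as a replicate block 2 cytokines were called in the middle window. With time and suffix pairs as a replicate block, added after the data were seen, 1 was called early (Il4), 3 in the middle window (Ifng, adjusted p = 0.0228; Il3, 0.0290; Il13, 0.0411) and 3 late minus early (Csf2, Il3 and Il4). Over all genes, calls ranged from 11 to 237 early (167 in the report), 439 to 1616 middle (766), 730 to 1689 late (1328), 159 to 731 late minus early (508), 236 to 1157 late minus middle (580), 15 to 428 middle minus early (89) and 0 to 216 on Mouse430A_2 (0). The cause of these shifts was not tested.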
